A study of Mus musculus with 8 samples.

Results

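The 8 genes described here are the DNA methyltransferase family (Dnmt1, Dnmt3a, Dnmt3b and Dnmt3l), the DNMT1 partner Uhrf1 and the 3 TET dioxygenases (Tet1, Tet2 and Tet3). They were chosen by name, as the rows of the raw count table that carry these symbols, and are 8 of its 55421 genes. All 8 passed the filter on low counts and are among the 20588 genes tested. The libraries came from primary spermatogonia cultures (SSC cultures) of mice with a C57BL/6XDBA/2 F1 hybrid background, 2 libraries for each of 4 groups. Stra8KO cultures lack Stra8, a retinoic acid target that acts at the start of meiosis, and Spo11KO cultures lack Spo11, whose product cuts DNA in meiotic cells. Each was given vehicle (Veh) or nutrient restriction medium with retinoic acid (NRRA), and the treatment lasted 48 h. No wild-type culture was analysed here, so every group carries a knockout of Stra8 or of Spo11. The cultures were started from testes of 6-day-old pups and were kept on irradiated mouse embryonic fibroblasts (MEFs), so RNA of these feeder cells is part of each library. Per the study's methods, each sequencing experiment had biological replicates made independently, and the labels, which number them, do not say whether each was a separately derived culture. The p-values measure the spread between these libraries.

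DNA methylation in mammals is copied at each replication by DNMT1, which UHRF1 brings to hemimethylated CpG sites behind the replication fork. DNMT3A and DNMT3B set new methylation, and the catalytically inactive DNMT3L assists them in germ cells. TET enzymes oxidise 5-methylcytosine, which opens the way to its removal by dilution or by base excision repair. In the male germ line methylation is erased in primordial germ cells and laid down again before birth in prospermatogonia, and Dnmt3l is known for its high level at that fetal stage rather than in spermatogonia.

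Library totals lay between 20960794 and 27038868 counts, and the common biological coefficient of variation was 3.39%. Reads of Stra8 numbered 0 and 2 in Stra8KO Veh and 169 and 170 in Stra8KO NRRA, against 12604 and 16191 in Spo11KO NRRA. Spo11 itself had 72 to 148 counts in the libraries with the Spo11KO label and 31 to 68 in Stra8KO, so gene counts do not check that label. Summed levels of 10 pan-germ cell markers such as Ddx4 and Dazl were 861 CPM (counts scaled to a common library total) in both Stra8KO Veh libraries and 1006 to 1063 CPM in Stra8KO NRRA. In the libraries labelled Spo11KO they were 1724 to 1763 CPM in Veh and 1958 to 2008 CPM in NRRA. The sum of the 16 fibroblast markers ran the other way between genotypes and was higher with NRRA, though single markers moved in both directions. It was 12636 to 12706 CPM in Spo11KO Veh and 20183 to 20870 CPM in Spo11KO NRRA. In Stra8KO it was 23927 to 24478 CPM in Veh and 39804 to 40260 CPM in NRRA. No marker of either list was at 0 in both libraries of a group. Macrophage and Sertoli or Leydig cell markers summed to between 22.6 and 63.2 CPM for each list. In bulk RNA, fewer cells of a type and less RNA per cell cannot be told apart.

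Levels of different genes were compared as CPM per kb of exon, where the exon length counts every annotated exon base of the gene once. On this scale Uhrf1 stood first and Dnmt1 second in every group, followed by Dnmt3b. Uhrf1 had 52.0 ± 1.18 CPM per kb in Stra8KO Veh (SD, n = 2) and 116 ± 3.05 in Spo11KO Veh, and Dnmt1 had 45.2 ± 0.103 and 85.5 ± 0.949. Dnmt3b, Dnmt3a, Tet3, Tet2, Dnmt3l and Tet1 followed in that order, except in Spo11KO NRRA, where Tet3 (10.4 ± 0.231 CPM per kb) stood above Dnmt3a (8.43 ± 0.200). Neighbours in this order overlapped between libraries in 2 places, Uhrf1 with Dnmt1 in Spo11KO NRRA and Dnmt3l with Tet1 in Stra8KO NRRA. Tet1 was last in every group, between 0.129 and 0.518 CPM per kb on average. Dnmt3a and the 3 TET genes carry long annotated exon sets (16642 bases for Dnmt3a, 4259 for Uhrf1), which lowers them on this scale where not all exons are used.

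NRRA was compared with Veh within each genotype, to see which of these genes move when spermatogonia are pushed towards meiosis with and without Stra8. In Stra8KO, 7 of the 8 genes passed the test, 4 higher and 3 lower, where 41.9% of all tested genes did, 21.6% higher and 20.2% lower. Spo11KO cultures had 4 calls, 2 in each direction, where 49.9% of tested genes did, 24.5% higher and 25.5% lower. Dnmt3b and Tet3 rose, and Uhrf1 and Tet2 fell, in both genotypes. Dnmt1, Dnmt3a and Tet1 passed in Stra8KO and not in Spo11KO, and of these 3 the difference between the genotypes passed its own test only for Tet1. With scaling to the pan-germ cell markers Dnmt1 (-0.19, edgeR adjusted p 7.21e-05) and Tet1 (-0.52, edgeR adjusted p 0.0461) also passed in Spo11KO, and with total counts alone Dnmt3a did (0.17, edgeR adjusted p 0.00117). For each of the 8 genes the Veh and NRRA libraries did not overlap in CPM in either genotype, which also held for 69.4% of tested genes in Stra8KO and 71.9% in Spo11KO. Tests were edgeR's quasi-likelihood tests, adjusted by Benjamini-Hochberg over all tested genes and called at an adjusted p under 0.05, and differences are log2 ratios after TMM scaling. Beside these changes, 11 of the 16 fibroblast markers rose and 4 fell under NRRA in Stra8KO and 11 rose and 5 fell in Spo11KO, with median log2 differences of 0.50 and 0.28, and their part in the members' changes was not tested. The NRRA comparisons of the 2 genotypes share no library.

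**Figure D1:**
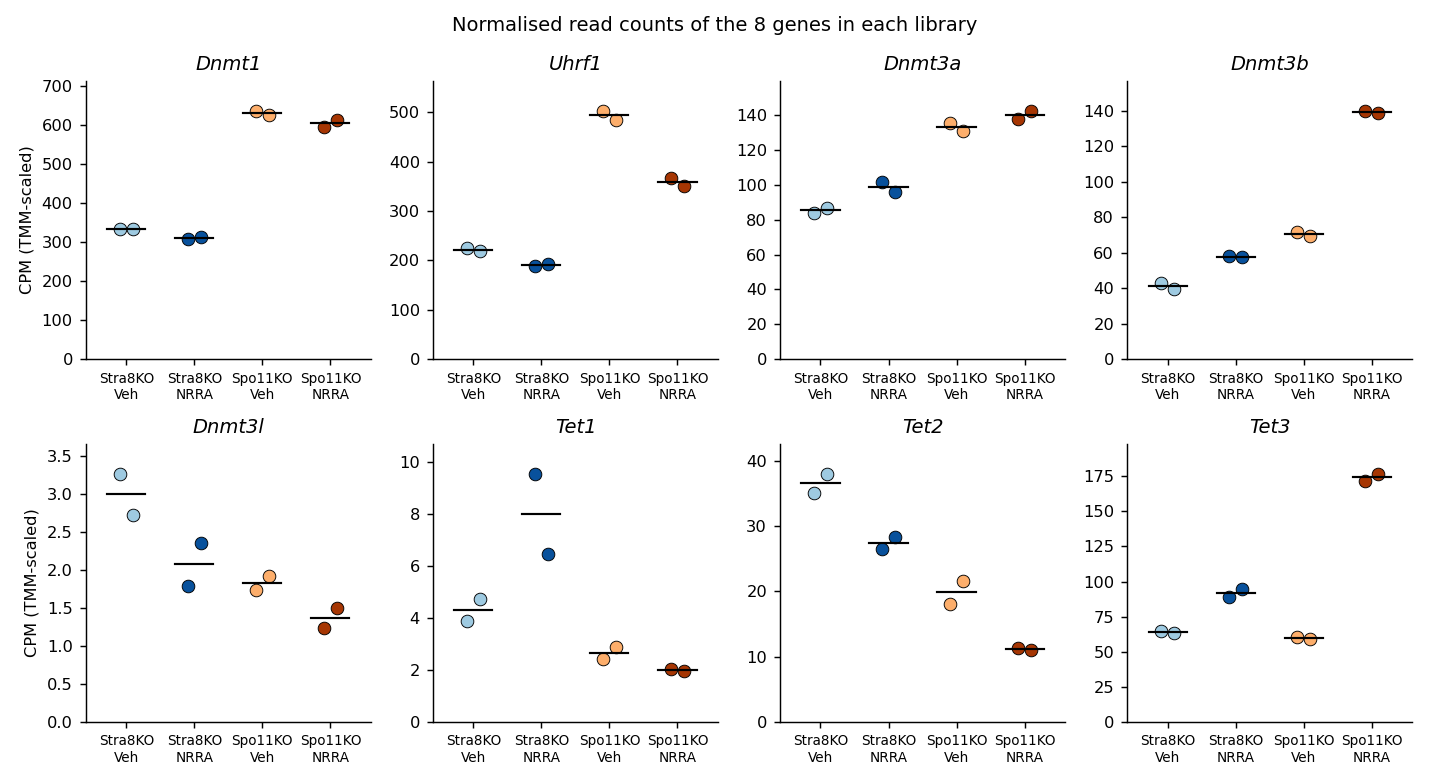
TMM-scaled CPM (vertical axes from 0, 1 panel for each gene) in each of the 8 libraries, with a horizontal bar at the mean of the 2 libraries of a group. Dnmt1, Uhrf1, Dnmt3a and Dnmt3b lie higher in Spo11KO than in Stra8KO in either medium, Tet2 lies lower, and Tet3 stands apart in Spo11KO NRRA at 172 and 177 CPM. Under scaling to the pan-germ cell markers the order of the genotypes turns for Dnmt1 and Dnmt3b in Veh and for Dnmt3a in both media.

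Dnmt1, the maintenance methyltransferase, had 334 and 333 CPM in the Stra8KO Veh libraries and 307 and 311 CPM in Stra8KO NRRA. In Spo11KO it had 636 and 626 CPM in Veh and 595 and 612 CPM in NRRA. The 4 Stra8KO libraries thus lay far below the 4 labelled Spo11KO, and the shift between media was small beside that gap. The log2 difference of NRRA from Veh was -0.11 (SE 0.0365, edgeR adjusted p 0.0140) in Stra8KO and -0.06 (SE 0.0351, edgeR adjusted p 0.133) in Spo11KO. The Stra8KO call was lost without either Veh library or without NRRA replicate 1 (edgeR adjusted p 0.0763 to 0.104), at differences of -0.11 to -0.10, and on total counts without further scaling the Spo11KO value turned to 0.03. Between genotypes Dnmt1 was lower in Stra8KO by a log2 difference of -0.92 (SE 0.0360, edgeR adjusted p 3.68e-27) in Veh and -0.97 (SE 0.0360, edgeR adjusted p 5.42e-28) in NRRA, while scaling to the pan-germ cell markers gave 0.02 in Veh and -0.16 in NRRA.

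Uhrf1, which recognises hemimethylated DNA and recruits DNMT1, fell under NRRA in both genotypes. In Stra8KO it had 225 and 218 CPM with Veh and 189 and 193 CPM with NRRA, and in Spo11KO 503 and 485 CPM with Veh and 367 and 351 CPM with NRRA. No library of a group reached into another group. The log2 difference of NRRA from Veh was -0.21 (SE 0.0397, edgeR adjusted p 1.35e-05) in Stra8KO and -0.46 (SE 0.0373, edgeR adjusted p 4.37e-15) in Spo11KO. Per kb of exon, Uhrf1 stood at 1.34 to 1.37 times Dnmt1 in the Spo11KO Veh libraries and at 0.993 to 1.07 times in Spo11KO NRRA, against 1.06 to 1.17 times over the 4 Stra8KO libraries. Genes of DNA replication and proliferation moved beside Uhrf1 and Dnmt1. Of 15 such genes, which include the MCM helicase subunits and Mki67, 8 fell and 1 rose under NRRA in Stra8KO and 13 fell and 1 rose in Spo11KO, with median log2 differences of -0.15 and -0.31 against 0.01 over all tested genes in both, where 20.2 and 25.5% of tested genes fell. With scaling to the pan-germ cell markers 14 were lower in each genotype, with medians of -0.41 and -0.43 against -0.24 and -0.11. Their part in the result was not tested.

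Dnmt1 and Uhrf1 are shown here with the sequence before 1 chosen transcript start of each. They were picked because their libraries ran most alike among the DNMT genes and Uhrf1. Both windows also hold a match to the E2F site, the element bound by the E2F factors of the cell cycle. The sequences are RefSeq promoter windows (build GRCm38.p6), 5′ to 3′ on the strand of the gene, and capitals mark the E2F match. The Dnmt1 stretch lies at chr9:20952824-20952853 on the minus strand, with the match 219 bases before the chosen start. It is cut to 30 bases because 166 bases of its window lie in annotated exons, and the printed bases may be among them. Another annotated Dnmt1 start lies upstream at chr9:20952979, so the stretch lies downstream of that start. The Uhrf1 window covers the 250 bases before the start at chr17:56304063-56304312 on the plus strand, with the match at 185 bases.
Dnmt1: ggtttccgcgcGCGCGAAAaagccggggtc
Uhrf1: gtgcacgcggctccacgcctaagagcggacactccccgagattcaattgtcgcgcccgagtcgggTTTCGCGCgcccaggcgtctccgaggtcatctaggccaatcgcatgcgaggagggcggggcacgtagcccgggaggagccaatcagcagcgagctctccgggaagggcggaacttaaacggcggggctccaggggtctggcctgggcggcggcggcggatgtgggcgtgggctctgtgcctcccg
The E2F search used TTTCCCGC, TTTCGCGC and TTTGGCGC on both strands, and 1.53% of 32851 RefSeq promoter windows of 250 bases held a match. Among the windows chosen for the 8 genes, 1 for each, Dnmt1 and Uhrf1 held one. Their windows held 26 and 30 CpG sites, against a median of 6 and an upper quartile of 16 over all windows. Each E2F string holds a CG, so the share over all windows is not a like background for these 2 genes. The motif CNCCTCAG, known for STRA8 with its partner MEIOSIN, was in none of these 8 windows and in 6.42% of all, and a second Dnmt3l window that was not the chosen one held 2 matches. The nuclear receptor half-site AGGTCA was in the Uhrf1 and Tet1 windows and in 14% of all. The retinoic acid receptor element, searched as exact paired half-sites 5 bases apart, was in none of the 8. It was in only 3 of all 32851 windows, so its absence here carries no information. A match is a string of letters and does not show binding.

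Dnmt3a had 84.2 and 86.9 CPM in Stra8KO Veh and 102 and 95.9 CPM in Stra8KO NRRA. In Spo11KO it had 135 and 131 CPM in Veh and 138 and 143 CPM in NRRA. The groups did not overlap, though the 2 Spo11KO groups lay within a few CPM of each other. NRRA raised Dnmt3a in Stra8KO by 0.21 (log2, SE 0.0483, edgeR adjusted p 3.67e-04), which scaling to the pan-germ cell markers turned to -0.05, and the value in Spo11KO was 0.07 (SE 0.0442, edgeR adjusted p 0.167), which the same scaling turned to -0.05. The 2 values did not differ detectably, with an interaction of 0.13 (log2, SE 0.0655, edgeR adjusted p 0.138). Dnmt3a was lower in Stra8KO than in Spo11KO by a log2 difference of -0.64 (SE 0.0469, edgeR adjusted p 6.98e-17) in Veh and -0.51 (SE 0.0456, edgeR adjusted p 7.44e-14) in NRRA, and scaling to the pan-germ cell markers turned both to 0.30.

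Dnmt3b, the other de novo methyltransferase, rose most under NRRA among the methyltransferases. In Stra8KO it went from 43.1 and 39.4 CPM with Veh to 57.9 and 57.6 CPM with NRRA, and in Spo11KO from 71.8 and 69.5 CPM to 140.0 and 139 CPM. The Spo11KO NRRA libraries stood clear of all others. NRRA raised Dnmt3b 1.40-fold in Stra8KO (log2 0.48, SE 0.0578, edgeR adjusted p 7.81e-10) and 1.97-fold in Spo11KO (log2 0.98, SE 0.0488, edgeR adjusted p 5.84e-23). The rise was smaller in Stra8KO by an interaction of -0.50 (log2, SE 0.0758, edgeR adjusted p 7.95e-07). Dnmt3b was lower in Stra8KO than in Spo11KO by -0.77 (log2, SE 0.0560) in Veh, which scaling to the pan-germ cell markers turned to 0.17, and by -1.27 (log2, SE 0.0504) in NRRA, where the same scaling gave -0.46. Per kb of exon, Dnmt3b stood at 3.17 and 3.31 times Dnmt3a in the Spo11KO NRRA libraries and at 1.48 to 1.96 times in the other 6 libraries. These ratios rest on annotated exon lengths of 5106 bases for Dnmt3b and 16642 for Dnmt3a, not all of which may be used. In CPM, without length, the means in Spo11KO NRRA were 139 for Dnmt3b and 140 for Dnmt3a.

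Dnmt3l was near the bottom of the detectable range, with 32 to 73 counts per library. It had 3.26 and 2.72 CPM with Veh and 1.79 and 2.35 CPM with NRRA in Stra8KO, and 1.73 and 1.91 CPM with Veh and 1.23 and 1.5 CPM with NRRA in Spo11KO. Libraries of Stra8KO NRRA and Spo11KO Veh were interleaved. The log2 differences of NRRA from Veh, -0.53 (SE 0.244, edgeR adjusted p 0.0757) in Stra8KO and -0.40 (SE 0.268, edgeR adjusted p 0.217) in Spo11KO, did not pass the test. Dnmt3l was higher in Stra8KO than in Spo11KO by 0.72 (log2, SE 0.245, edgeR adjusted p 0.00957) in Veh, a call that was lost without Stra8KO Veh replicate 1 (0.58), without Spo11KO Veh replicate 1 (0.65) and with DESeq2 (0.72, adjusted p 0.0847). In NRRA the difference was 0.59 (SE 0.266, edgeR adjusted p 0.0484) and lost its call in 14 of 17 alternatives, among them without Stra8KO NRRA replicate 2 (0.38). The gene shares 67 exon bases with Aire on the opposite strand, which had at most 4 counts in a library, and the pseudogene Dnmt3l-ps1 had at most 7.

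Dnmt3b and Tet3 are shown side by side because both rose under NRRA in the 2 genotypes and more in Spo11KO. The 250 bases before each start are printed on the strand of the gene from the same RefSeq windows, and capitals mark GC boxes (GGGCGG or its complement), which Sp1-type factors bind. The Dnmt3b window lies at chr2:153649199-153649448 on the plus strand and the Tet3 window at chr6:83441679-83441928 on the minus strand.
Dnmt3b: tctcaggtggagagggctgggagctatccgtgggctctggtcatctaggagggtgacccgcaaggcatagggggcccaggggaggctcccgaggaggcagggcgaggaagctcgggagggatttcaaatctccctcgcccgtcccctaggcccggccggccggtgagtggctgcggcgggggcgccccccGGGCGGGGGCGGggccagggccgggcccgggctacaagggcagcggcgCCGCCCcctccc
Tet3: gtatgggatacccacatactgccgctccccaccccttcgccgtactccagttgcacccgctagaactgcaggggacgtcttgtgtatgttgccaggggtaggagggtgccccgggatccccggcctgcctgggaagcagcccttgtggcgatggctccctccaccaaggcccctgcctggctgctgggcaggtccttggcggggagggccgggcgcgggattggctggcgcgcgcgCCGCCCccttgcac
Dnmt3b held 3 GC boxes and Tet3 held 1, and 32.7% of all windows held at least 1. GC boxes also lay in the chosen windows of Dnmt3a (5), Uhrf1 (3), Dnmt1 (2), Tet1 (1) and Tet2 (1), and not in that of Dnmt3l. They thus do not set apart the genes that rose, since Uhrf1 and Tet2 fell. The GC box holds a CG, so the share over all windows is not a like background. The windows held 21 and 17 CpG sites, against a median of 6 over all windows with quartiles of 2 and 16. Of the 8 genes, Tet2 had the most CpG sites in its window with 51 and Dnmt3l the fewest with 3. Neither window held the E2F site, the half-site AGGTCA or CNCCTCAG.

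**Figure D2:**
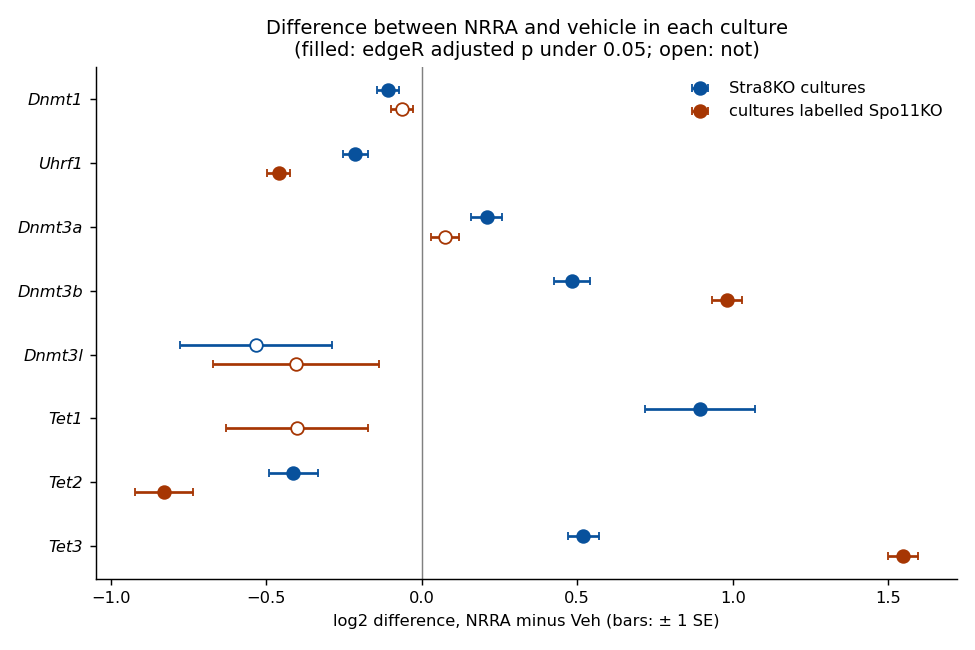
Log2 difference of NRRA from Veh for each gene (horizontal axis, bars ± 1 SE, n = 2 libraries a group) in Stra8KO (blue) and Spo11KO (brown), filled where the edgeR adjusted p was under 0.05. Dnmt3b and Tet3 lie right of 0 and Uhrf1 and Tet2 left of 0 in both genotypes, with each of these 4 farther from 0 in Spo11KO, and the 2 Tet1 points lie on opposite sides. Dnmt3a turned left of 0 in both genotypes when libraries were scaled to the pan-germ cell markers, and Dnmt1 in Spo11KO turned right of 0 on total counts.

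Tet1 was the TET gene with the fewest reads, at 53 to 198 counts per library. Stra8KO libraries had 3.89 and 4.73 CPM with Veh and 9.56 and 6.46 CPM with NRRA. Spo11KO libraries had 2.40 and 2.87 CPM with Veh and 2.05 and 1.94 CPM with NRRA. The 2 Stra8KO NRRA libraries were the highest of the 8 and also the farthest apart. NRRA raised Tet1 in Stra8KO by 0.89 (log2, SE 0.177, edgeR adjusted p 3.86e-05). Without Stra8KO NRRA replicate 1 the rise was 0.59 and the call held. In Spo11KO the log2 difference was -0.40 (SE 0.230, edgeR adjusted p 0.147), and the interaction was 1.30 (SE 0.291, edgeR adjusted p 4.95e-04). Tet1 was higher in Stra8KO than in Spo11KO by 0.70 (log2, SE 0.209, edgeR adjusted p 0.00315) in Veh, a call lost without Stra8KO Veh replicate 2 (0.56), and 4.0-fold higher (log2 2.00, SE 0.193, edgeR adjusted p 6.26e-13) in NRRA.

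Tet2, a TET enzyme that lacks the DNA-binding CXXC domain of its relatives, fell under NRRA in both genotypes. It went from 35.1 and 38.1 CPM with Veh to 26.6 and 28.3 CPM with NRRA in Stra8KO, and from 18.2 and 21.6 CPM to 11.3 and 11 CPM in Spo11KO. The 4 groups did not overlap, and every Stra8KO library lay above every Spo11KO library. The log2 difference of NRRA from Veh was -0.41 (SE 0.0800, edgeR adjusted p 2.66e-05) in Stra8KO and -0.83 (SE 0.0939, edgeR adjusted p 1.48e-10) in Spo11KO. Tet2 was higher in Stra8KO than in Spo11KO 1.84-fold in Veh (log2 0.88, SE 0.0825, edgeR adjusted p 2.79e-13) and 2.46-fold in NRRA (log2 1.30, SE 0.0908, edgeR adjusted p 1.32e-17).

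Tet3, the TET gene with the most reads in every group, rose under NRRA in both genotypes. Veh libraries had 65.0 and 63.4 CPM in Stra8KO and 60.2 and 59.0 CPM in Spo11KO. NRRA libraries had 89.1 and 95 CPM in Stra8KO and 172 and 177 CPM in Spo11KO. The Veh groups of the 2 genotypes lay close together, and the NRRA groups lay far apart. NRRA raised Tet3 1.43-fold in Stra8KO (log2 0.52, SE 0.0508, edgeR adjusted p 2.30e-12) and 2.92-fold in Spo11KO (log2 1.55, SE 0.0479, edgeR adjusted p 1.89e-31), the largest change of the 8 genes under NRRA. The genotypes differed by 0.11 in Veh (log2, SE 0.0525, edgeR adjusted p 0.0697), with a value of -0.01 on total counts and a call at 1.05 under scaling to the pan-germ cell markers. In NRRA Tet3 was lower in Stra8KO by -0.92 (log2, SE 0.0461, edgeR adjusted p 4.41e-23), and the pan-germ scaling left -0.11.

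Within the TET family the make-up by length-scaled level moved towards Tet3 under NRRA. Tet3 held 59.7 and 62.6% of the summed CPM per kb of the 3 genes in Stra8KO Veh and 70.9 and 73.1% in Stra8KO NRRA. In Spo11KO its share went from 70.7 and 74.6% with Veh to 92.7 and 93.2% with NRRA. The ratio of Tet3 to Tet2, both per kb, was 15.3 and 16.2 in the Spo11KO NRRA libraries and 1.68 to 3.39 in the other 6. Among the methyltransferases, Dnmt1 held 69.1 to 79.3% of the summed CPM per kb in every library, and Dnmt3b rose from 12.7 and 12.9% in Spo11KO Veh to 22.8 and 23.5% in Spo11KO NRRA. Shares and ratios within a library do not depend on how libraries are scaled, and they were described without a test.

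**Figure D3:**
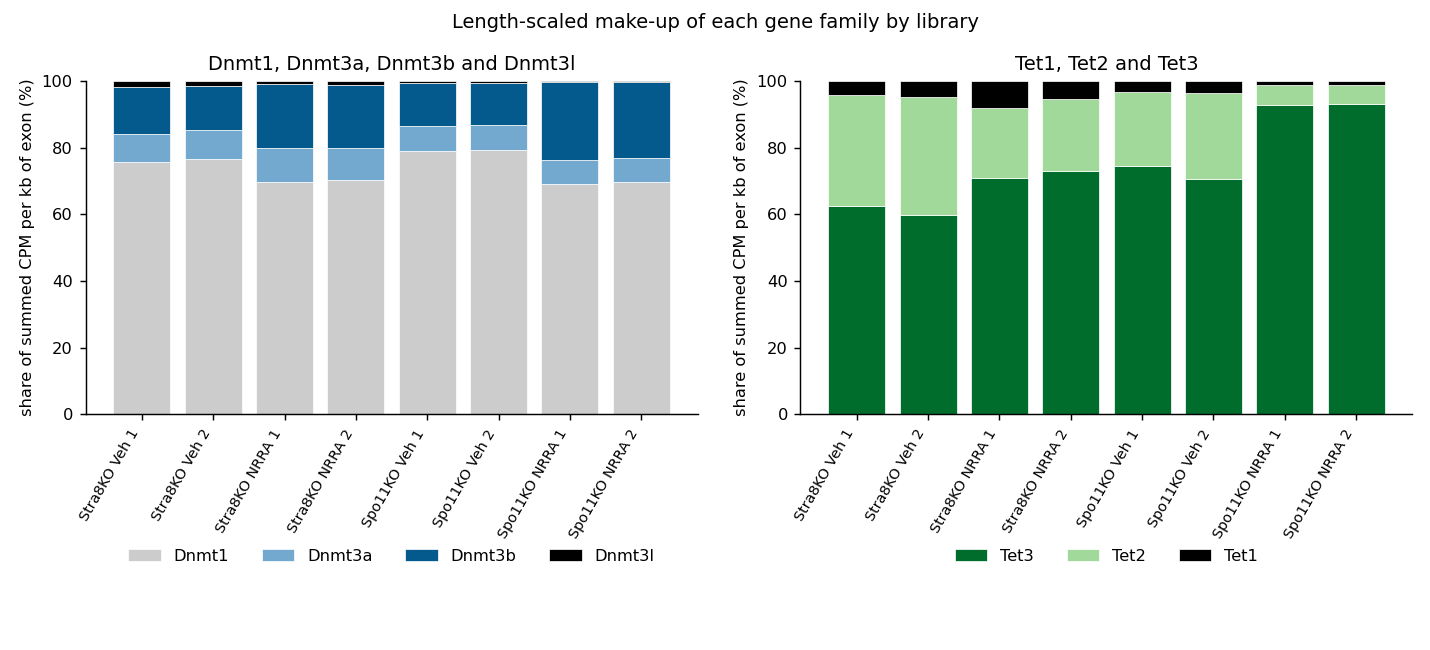
Share of each gene (vertical axis, percent) in the summed CPM per kb of exon of its family, 1 bar for each of the 8 libraries, methyltransferases on the left and TET genes on the right. Tet3 holds 92.7 and 93.2% of the TET sum in Spo11KO NRRA and 59.7 to 74.6% elsewhere, and Dnmt3b holds 22.8 and 23.5% of the methyltransferase sum in Spo11KO NRRA and 12.7 to 19.0% elsewhere.

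The response to NRRA was compared between genotypes as an interaction, given as Stra8KO minus Spo11KO. Of the 8 genes 5 passed, 3 higher and 2 lower, where 25.1% of all tested genes did, 14.8% higher and 10.3% lower. Tet3 (-1.03, SE 0.0699, edgeR adjusted p 5.33e-17) and Dnmt3b (-0.50) rose less in Stra8KO. Uhrf1 (0.25, SE 0.0544, edgeR adjusted p 3.98e-04) and Tet2 (0.42, SE 0.124, edgeR adjusted p 0.00908) fell less in Stra8KO, and Tet1 had a difference of 1.30 (SE 0.291, edgeR adjusted p 4.95e-04), with a rise called in Stra8KO and no call in Spo11KO. The Tet2 call was lost in 5 of 16 alternatives. Among them were DESeq2 (0.38) and scaling to the pan-germ cell markers (0.28). The others left out Stra8KO Veh replicate 1 (0.35), Stra8KO NRRA replicate 2 (0.37) or Spo11KO Veh replicate 2 (0.29). The Uhrf1 call was also lost under scaling to the pan-germ cell markers (0.11). Dnmt1 had -0.04 (SE 0.0506, edgeR adjusted p 0.591), a value that passed with scaling to the pan-germ cell markers (-0.18, edgeR adjusted p 0.0155) and with total counts alone (-0.14, edgeR adjusted p 0.0271). Dnmt3l had -0.13 (SE 0.365, edgeR adjusted p 0.853). Marker genes of undifferentiated spermatogonia also responded by genotype, with all 12 called higher in the interaction. They summed to 1564 to 1597 CPM in Spo11KO Veh and 518 to 522 CPM in Spo11KO NRRA, against 716 to 760 CPM over the Stra8KO libraries. Sums of 6 markers of differentiating spermatogonia, such as the receptor gene Kit, rose under NRRA from 116 to 125 CPM to 391 to 398 CPM in Stra8KO. In Spo11KO they rose from 205 to 212 CPM to 1151 to 1221 CPM. Stra8, knocked out in Stra8KO, is among them, with 12604 and 16191 counts in Spo11KO NRRA, so the sums differ partly by design. Of the 6 genes, 2 were called higher and 2 lower in the interaction. Their median log2 difference under NRRA was 2.77 in Stra8KO, with 5 higher and 0 lower, and 2.23 in Spo11KO, with 5 higher and 1 lower. The part of these markers in the interaction was not tested.

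Stra8KO was compared with Spo11KO in each medium, which sets 2 knockouts side by side rather than a knockout beside a wild type. In Veh 7 of the 8 genes passed, 3 higher and 4 lower in Stra8KO, where 62.3% of tested genes did, 31.6% higher and 30.7% lower. In NRRA all 8 passed, 3 higher and 5 lower, where 64% of tested genes did, 35% higher and 28.9% lower. The Dnmt3l call was lost in 14 of 17 alternatives in NRRA and in 3 of 17 in Veh. Libraries of the genotypes did not overlap for any of the 8 genes, as for 79.7% of tested genes in Veh and 80.8% in NRRA. The 4 genes lower in Stra8KO in both media were Dnmt1, Uhrf1, Dnmt3a and Dnmt3b, and the 3 higher in both were Dnmt3l, Tet1 and Tet2, though scaling to the pan-germ cell markers turned Dnmt1 and Dnmt3b in Veh and Dnmt3a in both media. These comparisons share their libraries with those of NRRA against Veh. Uhrf1 had the largest difference in Veh (-1.16, SE 0.0385, edgeR adjusted p 1.04e-29) and was at -0.91 (SE 0.0388) in NRRA.

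Germ cell and feeder markers moved with the genotype in the same comparisons. All 10 pan-germ cell markers were lower in Stra8KO in both media, by a median log2 difference of -0.98 in Veh, between -1.15 and -0.60, and of -0.91 in NRRA, between -1.22 and -0.18. All 16 fibroblast markers were higher, by a median of 0.93 in Veh, between 0.45 and 1.55, and of 1.00 in NRRA, between 0.78 and 1.39. The median over all tested genes was 0.00 in Veh and 0.07 in NRRA. The replication list was lower for 15 of 15 genes in Veh, with a median of -1.0, and for 14 of 15 in NRRA, with a median of -0.87, whereas with scaling to the pan-germ cell markers 3 were higher and 5 lower in Veh and 5 higher and 7 lower in NRRA. In Veh, Dnmt1, Dnmt3a and Dnmt3b fell inside the range of the pan-germ markers, and Dnmt3l, Tet1 and Tet2 inside that of the fibroblast markers. In NRRA, Dnmt1, Uhrf1, Dnmt3a and Tet3 fell inside the pan-germ range and Tet2 inside the fibroblast range, while Tet1 (2.00) lay above the highest fibroblast marker and Dnmt3b (-1.27) below the lowest pan-germ marker. Genotype and the balance of germ and feeder RNA cannot be told apart in these libraries.

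**Figure D4:**
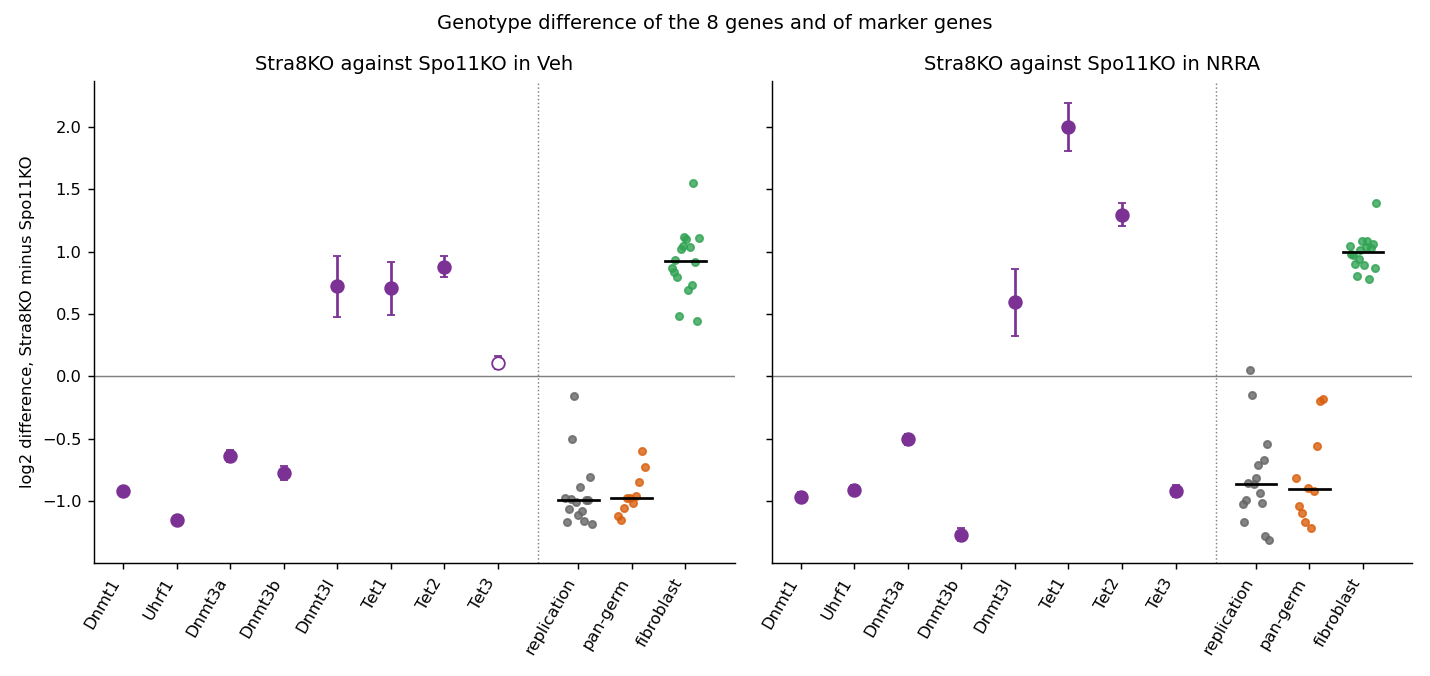
Log2 difference of Stra8KO from Spo11KO (vertical axis) in Veh (left) and NRRA (right) for the 8 genes (purple, bars ± 1 SE, filled where the edgeR adjusted p was under 0.05) and for single genes of 3 marker lists (small points, black line at the list's median). Dnmt1 (-0.92 and -0.97) sits near the pan-germ medians (-0.98 and -0.91), Tet2 (0.88) sits near the fibroblast median (0.93) in Veh, and Tet1 stands above all fibroblast markers in NRRA. Scaling to the pan-germ cell markers turns Dnmt1 and Dnmt3b to above 0 in Veh and Dnmt3a in both media.

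When libraries were scaled so that the 10 pan-germ cell markers had equal geometric means, the median over all tested genes moved to 0.94 in Veh and 0.87 in NRRA, and values are read against those shifts. On that scale 15657 genes were called higher in Stra8KO and 479 lower in Veh, in place of 6501 and 6325, and 15358 and 983 in NRRA, in place of 7214 and 5956. Tet1 (1.65 in Veh and 2.81 in NRRA), Tet2 (1.82 and 2.11) and Dnmt3l (1.66 and 1.40) were above the shifted medians. Dnmt1 (0.02 and -0.16), Uhrf1 (-0.21 and -0.10), Dnmt3a (0.30 and 0.30) and Dnmt3b (0.17 and -0.46) were below them. Tet3 was above in Veh (1.05) and below in NRRA (-0.11). This scaling moves every gene of a comparison by nearly the same amount. Places above or below the median therefore repeat those under TMM and add no separate result. The germ cell markers themselves were not constant under NRRA, where their median log2 difference was 0.20 in Stra8KO and 0.16 in Spo11KO.

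**Figure D5:**
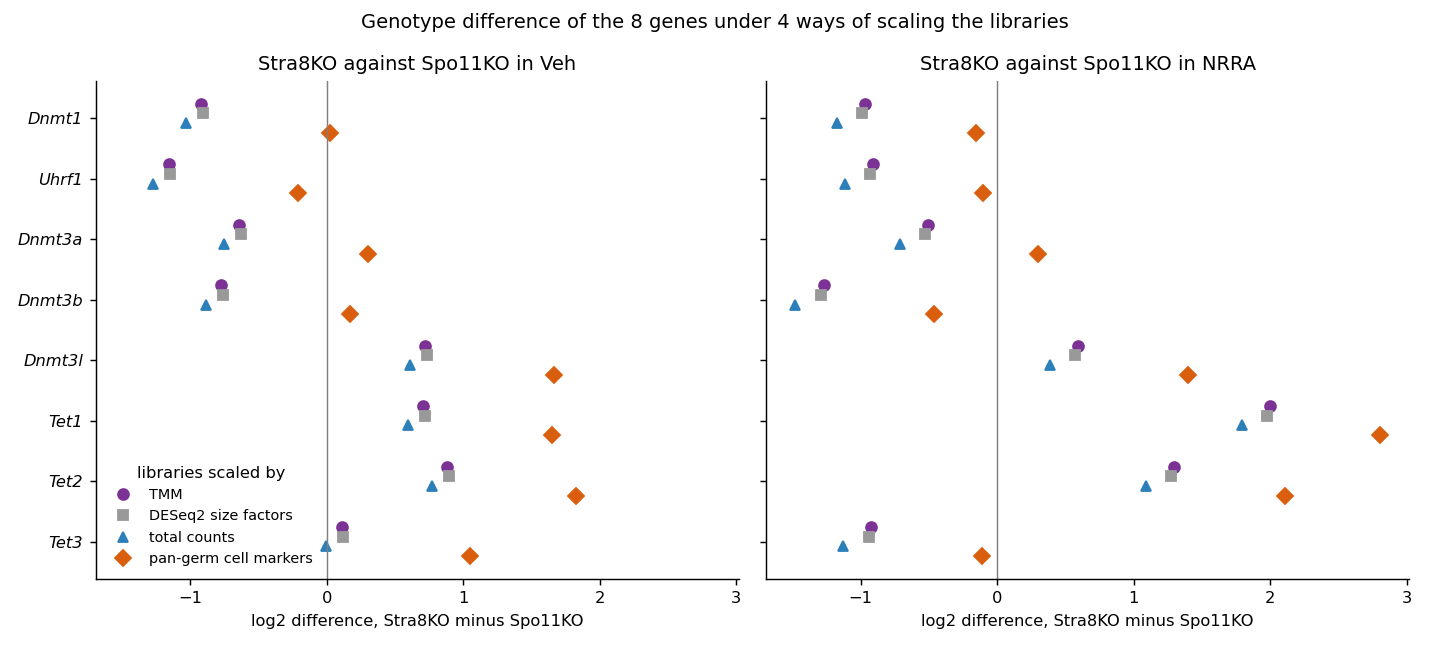
Log2 difference of Stra8KO from Spo11KO (horizontal axis) for the 8 genes in Veh (left) and NRRA (right) under 4 ways of scaling the libraries. TMM, DESeq2 size factors and total counts lie close together, while scaling to the pan-germ cell markers moves every gene to the right, which puts Dnmt1 (0.02), Dnmt3a (0.30) and Dnmt3b (0.17) above 0 in Veh and Dnmt3a (0.30) above 0 in NRRA, and total counts put Tet3 at -0.01 in Veh.

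The 48 other genes of the pathway in the lists used here all passed the low-count filter. Under NRRA 31 were called in Stra8KO, 13 higher and 18 lower, and 30 in Spo11KO, 12 higher and 18 lower, where 41.9 and 49.9% of tested genes were called. Scaling to the pan-germ cell markers gave 8 higher and 30 lower in Stra8KO and 8 higher and 26 lower in Spo11KO. Total counts alone gave 18 higher and 15 lower in Spo11KO. Over all tested genes the pan-germ scaling gave 2394 higher and 9016 lower in Stra8KO and 3565 and 7002 in Spo11KO. Total counts alone gave 6492 and 4033 in Spo11KO. Among the maintenance partners, 1 of 8 rose and 5 fell in Stra8KO, where 21.6% of tested genes rose and 20.2% fell. In Spo11KO 1 rose and 6 fell, where 24.5% of tested genes rose and 25.5% fell. Uhrf2, the paralogue of Uhrf1, fell by 0.60 (log2, SE 0.0518, edgeR adjusted p 3.58e-14) in Stra8KO and by 0.39 (SE 0.0499, edgeR adjusted p 2.79e-09) in Spo11KO, and Kmt5a, a histone H4K20 methyltransferase, fell by 0.59 in Stra8KO. One of the calls in Spo11KO is Dppa3, which encodes an inhibitor of UHRF1 and was picked out after its values were seen. In Spo11KO its counts were 5 and 6 with Veh and 0 and 1 with NRRA, under the 3 counts below which no fold is given, and 5 to 15 counts in the Stra8KO libraries.

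The oxidation and base excision partners held the largest rises under NRRA. Gadd45g, a stress-response gene linked to active demethylation, rose by 3.21 (log2, SE 0.0795, edgeR adjusted p 1.69e-35) in Stra8KO and by 2.6 (SE 0.0865, edgeR adjusted p 3.97e-30) in Spo11KO, and its relative Gadd45b rose by 1.93 and 1.84. Of the 15 genes of this list 3 rose and 7 fell in Stra8KO, and 2 rose and 5 fell in Spo11KO. Over all tested genes 21.6% rose and 20.2% fell in Stra8KO, and 24.5% rose and 25.5% fell in Spo11KO. Those shares stand beside each list counted here. Tdg, the glycosylase that removes oxidised methylcytosine, had log2 differences of 0.22 (edgeR adjusted p 0.134) in Stra8KO, which scaling to the pan-germ cell markers turned to -0.04, and -0.09 (edgeR adjusted p 0.448) in Spo11KO. In Spo11KO Ung, which removes uracil, fell by 0.77 and Apex1, the abasic site nuclease, by 0.49, and in Stra8KO Cxxc4 fell by 0.43. Among methyl-CpG readers 2 of 8 rose and 4 fell in Stra8KO, and 3 rose and 2 fell in Spo11KO, and with the pan-germ scaling the counts were 1 higher and 6 lower in Stra8KO and 2 higher and 3 lower in Spo11KO. Mbd1 rose by 1.35 in Stra8KO and 0.62 in Spo11KO (interaction 0.74, SE 0.0707, edgeR adjusted p 5.27e-12). Of the 10 guides and chromatin partners of de novo methylation, 3 rose in Stra8KO, and 3 rose and 2 fell in Spo11KO, among them the imprint factor Zfp57 with a fall of 0.59. With scaling to the pan-germ cell markers this list had 1 higher and 6 lower in Stra8KO and 1 higher and 5 lower in Spo11KO. With total counts alone it had 6 higher and 2 lower in Spo11KO. Over all tested genes the pan-germ scaling gave 2394 higher and 9016 lower in Stra8KO and 3565 and 7002 in Spo11KO. Total counts alone gave 6492 and 4033 in Spo11KO. Of 7 genes that supply S-adenosylmethionine and TET cofactors, 4 rose and 2 fell in Stra8KO and 3 rose and 3 fell in Spo11KO. Methionine synthase (Mtr) moved in opposite directions, by 0.52 in Stra8KO and -0.42 in Spo11KO (interaction 0.94, SE 0.0604, edgeR adjusted p 5.98e-18).

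Between genotypes 44 of the 48 genes were called in Veh, 17 higher and 27 lower in Stra8KO, and 42 in NRRA, 15 higher and 27 lower, with medians of -0.27 and -0.18, where 62.3 and 64% of tested genes were called. With scaling to the pan-germ cell markers the split moved to 38 higher and 3 lower in Veh and 42 higher and 3 lower in NRRA. Over all tested genes that scaling gave 15657 higher and 479 lower in Veh and 15358 and 983 in NRRA. Medians of the 48 genes were then 0.67 and 0.62, below the 0.94 and 0.87 of all tested genes. That scaling moves both medians by nearly the same amount, so the gap between them repeats the one under TMM. Cdca7l, a partner of the remodeller HELLS, was lower by -1.31 in Veh and Hells itself by -1.16 in NRRA. Ung (-1.13) and Mtr (-1.08) in Veh, and the glycosylase Mbd4 (-1.04) and the demethylase Kdm1b (-0.94) in NRRA, completed the 3 largest falls of each medium. Rises are named among called genes whose log2 CPM averaged at least 1, a cut that leaves out Dppa3. Zbtb4, a methyl-CpG reader, was higher in Stra8KO by 1.01 in Veh and 0.93 in NRRA. The other largest rises were Gadd45a (0.90) and Cxxc4 (0.89) in Veh and Mbd1 (1.03) and Gadd45g (1.03) in NRRA. Uhrf2 had 0.11 in Veh (edgeR adjusted p 0.0459) and -0.10 in NRRA (edgeR adjusted p 0.106), and Tdg was lower by -0.85 (edgeR adjusted p 2.44e-09) and -0.53 (edgeR adjusted p 1.67e-05), which the pan-germ scaling turned to 0.10 and 0.28. Of the other values of these genes given here, that scaling also turned the sign of Uhrf2 in NRRA, to 0.71, and total counts alone turned Uhrf2 in Veh to -0.0015. The interaction was called for 23 of the 48, 15 higher and 8 lower, against 25.1% of tested genes. The pan-germ scaling gave 8 higher and 15 lower, and 1869 and 4085 over all tested genes. With the same cut the 3 highest interaction values were those of Mtr, Zfp57 (0.75) and Mbd1, and the 3 lowest those of Mbd2 (-0.34), Zbtb38 (-0.33) and Kmt5a (-0.33). Uhrf2 had an interaction of -0.21 (edgeR adjusted p 0.0271) and Tdg one of 0.31 (edgeR adjusted p 0.135).

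The genes whose log2 CPM ran most like each member over the 8 libraries were found among 10595 or 10596 genes whose log2 CPM averaged at least 3. These correlations describe 4 pairs of libraries and carry no test, and germ and feeder markers move along the same axis. Dnmt1 was most like Zfp217, Fen1 and Wdhd1 (Pearson r 0.999, 0.999 and 0.998) and Uhrf1 most like Aurka, Prmt7 and Cdc20 (each 0.998). Dnmt3a was followed by Fiz1, Zfp42 and Rasgef1b (0.995, 0.995 and 0.994) and Dnmt3b by Nr6a1, Alg13 and Rasd2 (0.999, 0.998 and 0.997). The pattern of Dnmt3l was nearest to Thoc7, Cnst and Tbc1d13 (0.992, 0.979 and 0.979). For the TET genes the nearest were Dtnbp1, Pdha1 and Nsdhl for Tet1 (0.989, 0.986 and 0.980), Vegfa, Serpina3n and Zfc3h1 for Tet2 (0.995, 0.994 and 0.993) and Hcn2, Ammecr1l and Podxl2 for Tet3 (0.989, 0.988 and 0.988). Among the members themselves Dnmt1 and Uhrf1 had r = 0.964, Dnmt3b and Tet2 had r = -0.990, and Uhrf1 and Tet3 had r = 0.01.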

How the data were processed

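Stranded poly(A) mRNA libraries, 8 in all, were prepared from SSC cultures and sequenced by the authors. They deposited raw counts for each Ensembl gene, in which every library has its own column, without normalization or pooling. Per the submitters' processing notes, bcl2fastq, STAR 2.6.1c and featureCounts 1.6.4 were used with mm10. The annotation release, the strand setting and the treatment of reads with several matches are not given in the sources used here, so reads shared with overlapping genes or copies could be split or dropped. Isoforms are not separated. Of the gene identifiers, 99.52% were found in GENCODE M21 (GRCm38), which gave exon lengths. Its overlaps of member exons with other genes were all antisense (Dnmt3aos, Aire and Gm42567, at most 4 counts each).

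Tests used edgeR 4.0.16 (R 4.3.3). The filterByExpr filter left 20588 genes with 99.88% of the counts, libraries were scaled by TMM, and a group-means model with robust quasi-likelihood dispersions was fitted to all 8 libraries. Each of 5 contrasts was tested two-sided, and p-values were adjusted by Benjamini-Hochberg across the 20588 genes. The SE is the absolute log2 difference divided by the square root of F. CPM is a gene's count scaled to a common library total after TMM. The mean chi-square per gene between replicates was 1.86 to 4.12, so libraries were counted separately. Alternatives were other scalings, filters, DESeq2 1.42.0 (named in the study's methods), a stricter threshold, a replicate block, only the 4 libraries of a comparison, and leaving out each library.

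The 8 genes are all named. Pathway genes are named by a rule: the 3 largest rises and falls per contrast among called genes whose log2 CPM averaged at least 1, and Uhrf2 and Tdg always. The members and lists were chosen with earlier results of these data known. Where 1 symbol had several identifiers, that with the most counts was used.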

Additional observations from a re-analysis of the deposited data

Results flagged for a closer look

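The NRRA response of 5 of the 8 genes differed between Stra8KO and Spo11KO by the edgeR interaction test, which is why each is listed. The interaction (log2, Stra8KO minus Spo11KO) was -1.03 for Tet3, -0.50 for Dnmt3b, 0.25 for Uhrf1, 0.42 for Tet2 and 1.30 for Tet1. Without 1 library at a time these ran from -1.08 to -0.98 for Tet3, from -0.56 to -0.43 for Dnmt3b, from 0.22 to 0.28 for Uhrf1, from 0.29 to 0.53 for Tet2 and from 0.99 to 1.55 for Tet1. With libraries scaled to the pan-germ cell markers they were -1.16, -0.63, 0.11, 0.28 and 1.16 in the same order, where the median over all tested genes was -0.12. On that scale the calls of Uhrf1 and Tet2 were lost. The Tet2 call was lost in 5 of 16 alternatives.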

How the results depend on the processing

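The number of the 8 genes called in each comparison stayed within 1.5 times the reported one under every alternative run. Scaling to the pan-germ cell markers turned the sign of Dnmt3a under NRRA to -0.050 in Stra8KO and -0.050 in Spo11KO, of the genotype difference in Veh to 0.023 for Dnmt1, 0.30 for Dnmt3a and 0.17 for Dnmt3b, of that in NRRA to 0.30 for Dnmt3a, and of the Dnmt3a interaction to -3.74e-04. That scaling moved the median of all tested genes to -0.24 and -0.11 for NRRA in Stra8KO and Spo11KO and the split of NRRA calls from 4456 higher and 4163 lower to 2394 and 9016 in Stra8KO and from 5038 and 5241 to 3565 and 7002 in Spo11KO. The interaction split moved from 3051 and 2121 to 1869 and 4085. Total counts without further scaling turned Dnmt1 under NRRA in Spo11KO to 0.029 and Tet3 between genotypes in Veh to -0.0057, moved the median to 0.10 for NRRA in Spo11KO, -0.11 between genotypes in Veh and -0.14 in NRRA, and split the calls 6492 and 4033, 5417 and 7544, and 5348 and 8183, with 2188 and 3473 for the interaction. The Dnmt3l interaction, not called, ran from -0.35 to 0.054 without 1 library at a time, with 0.012 without Stra8KO Veh replicate 1, 0.054 without Stra8KO NRRA replicate 1 and 0.030 without Spo11KO NRRA replicate 2.
DESeq2 called 3346 interactions over all genes, where edgeR called 5172. Deviations of same-numbered libraries correlated between -0.14 and 0.23 across genes, highest between Spo11KO Veh and Spo11KO NRRA. Whether replicate numbers pair the libraries is not settled by these values. A replicate block left 7, 4, 7, 7 and 5 of the 8 genes called in the 5 comparisons, and moved Dnmt3l between genotypes in NRRA to an edgeR adjusted p of 0.0531 at 0.59. Where 1 library was left out, the lone library of its group was taken to vary like the other groups. At 32 to 73 counts for Dnmt3l and 53 to 198 for Tet1, counting error limits small differences.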
